A study of Mus musculus with 19 samples.

Results

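*Casp1*, *Casp4* and *Casp12* lie next to each other on mouse chromosome 9, and these 3 genes of the 27174 with at least 1 read in the count data are described here. They were taken by symbol as the inflammatory caspase locus, and the locus was selected on its earlier result in the adult cerebellum, so the genotype difference of its members in that tissue is a description with no test. The embryonic brain comparisons took no part in that choice and were tested. RNA-seq had been carried out on polyadenylated RNA of FVB mice that were *Wiz* +/+ or carried 1 copy of *Wiz* MommeD30. That allele came from a chemical mutagenesis screen for epigenetic modifiers, and its mutation was found to lie in *Wiz*. *Wiz* encodes a zinc finger protein of the G9a/GLP histone methyltransferase complex. The samples were adult male cerebellum at 56 days post partum (3 per genotype), male whole brain at embryonic day 13.5 (3 per genotype) and female whole brain at the same stage (2 per genotype). The colony was kept on *Line3*, an FVB/NJ strain homozygous for a multicopy GFP transgene whose regulatory parts (promoter and the HS-40 element) come from human α-globin, a background shared by both genotypes. Whole tissue was used, so fewer cells of a type and less RNA per cell cannot be told apart. The heterozygous animals (Het, *Wiz* MommeD30/+) kept 1 wildtype *Wiz* allele and model a reduced dose.

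Inflammatory caspases are cysteine proteases of innate immunity. *Casp1* encodes the protease that inflammasomes activate when sensor proteins such as NLRP3 or AIM2 assemble with the adaptor ASC (the product of *Pycard*), after which it matures the cytokines of *Il1b* and *Il18* and cuts gasdermin D to open pores in the membrane. *Casp4* encodes the murine protease that binds bacterial lipopolysaccharide in the cytosol and cuts gasdermin D without an inflammasome sensor, and its transcription is known to rise with interferon and Toll-like receptor signals. *Casp12* encodes a relative whose product has been linked to the endoplasmic reticulum (ER) and to its stress response, with a role that is still debated. In neural tissue *Casp1* and *Casp4* are best known from microglia and other macrophages.

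All 3 genes are transcribed from the plus strand (GRCm38, the build of the deposited alignments). *Casp1* (ENSMUSG00000025888) occupies chr9:5298517-5307265, *Casp4* (ENSMUSG00000033538) chr9:5308828-5336783 and *Casp12* (ENSMUSG00000025887) chr9:5345430-5373032. Only 1562 bases separate *Casp1* from *Casp4* and 8646 bases separate *Casp4* from *Casp12*, and the annotation places no other gene between them. Their longest coding sequences were 65.5% to 68.1% identical over the aligned bases, with *Casp4* and *Casp12* the closest pair. No stretch of 100 bases, the read length, was shared between the annotated transcripts of 1 member and those of any other gene. The 250 bases before the start of each gene are shown because 3 neighbours with unlike levels can be compared there. They were taken from RefSeq (GRCm38.p6, plus strand), at chr9:5298267-5298516 for *Casp1*, chr9:5308599-5308848 for *Casp4* (the first of 2 listed starts) and chr9:5345226-5345475 for *Casp12*. The RefSeq starts of *Casp4* and *Casp12* lie 21 and 46 bases inside the GENCODE gene, so the last bases of those windows are transcribed in that annotation. Capitals mark matches to the motifs given after the sequences.
Casp1: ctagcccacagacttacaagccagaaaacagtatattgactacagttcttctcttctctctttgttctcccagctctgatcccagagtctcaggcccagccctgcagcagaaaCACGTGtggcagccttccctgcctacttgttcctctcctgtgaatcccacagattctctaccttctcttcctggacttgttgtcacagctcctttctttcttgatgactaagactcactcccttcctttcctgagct
Casp4: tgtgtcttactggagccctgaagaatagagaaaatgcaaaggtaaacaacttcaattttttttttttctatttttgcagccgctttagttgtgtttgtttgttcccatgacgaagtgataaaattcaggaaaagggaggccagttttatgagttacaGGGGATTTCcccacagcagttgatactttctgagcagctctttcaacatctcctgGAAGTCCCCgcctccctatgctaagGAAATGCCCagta
Casp12: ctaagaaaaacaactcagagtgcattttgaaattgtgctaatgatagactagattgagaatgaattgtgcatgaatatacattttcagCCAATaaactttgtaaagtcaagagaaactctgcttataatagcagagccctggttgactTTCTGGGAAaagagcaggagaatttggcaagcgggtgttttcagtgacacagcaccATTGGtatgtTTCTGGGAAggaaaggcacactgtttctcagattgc

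The 3 windows held different motifs. Both strands were searched for an E-box (CACGTG), the CCAAT box, a STAT element (TTCNNNGAA) and an NF-kB core (GGGNNNTTC). They were also searched for a TATA box (TATAAA), a GC box (GGGCGG), an interferon regulatory factor core (GAAANNGAA) and a CTCF core (AGGGGGC), letters that none of the 3 windows held. No match overlapped another. The *Casp1* window held a single match, the E-box, 137 bases before the start, which 6.05% of the 27025 promoter windows of this length also hold. The *Casp4* window held 3 NF-kB core matches at 93, 38 and 13 bases before the start, of which GGGGATTTC was on the forward strand. At least 1 NF-kB core was found in 11.8% of windows. The *Casp12* window held the same STAT element, TTCTGGGAA, at 102 and again at 36 bases before the start, and 2 CCAAT boxes, against 7.18% and 34.5% of windows with at least 1 of each. GC content was 49.2% for *Casp1*, 41.6% for *Casp4* and 39.2% for *Casp12*, all under the median of 52.0% over promoter windows, and the windows held 1, 3 and 1 CG pairs against a median of 6. A match is a run of letters and not evidence that a factor binds.

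The libraries held 16386029 to 50459755 counted reads, and the smallest was *Wiz* +/+ male brain replicate 2. *Wiz* itself was at 95.4 counts per 1000000 counted reads (CPM) ± 0.35 (SD, n = 3) in *Wiz* +/+ cerebellum and 67.4 ± 0.762 in Het cerebellum, and it was also lower in Het male and Het female brain (edgeR quasi-likelihood test, adjusted p = 9.9e-08, 1.3e-05 and 0.014). Markers of granule and Purkinje cells were high in the cerebellum and low in the embryonic brain, and progenitor markers ran the other way, as the tissue labels say. In Het cerebellum replicate 2 the choroid plexus list summed to 949 CPM, against 1740 to 2040 CPM in the other cerebella.

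In the adult cerebellum *Casp1* was the member with the largest genotype difference. *Casp1* stood at 2.02, 2.20 and 2.21 CPM in the 3 *Wiz* +/+ cerebella and at 5.47, 5.05 and 5.43 CPM in the 3 Het cerebella, from 62 to 68 reads and 149 to 167 reads per library. Every Het cerebellum lay above every *Wiz* +/+ cerebellum, and the gap between the groups was many times the spread within either. The means were 2.15 ± 0.107 and 5.32 ± 0.233 CPM (SD, n = 3), the fitted log2 fold change was 1.31 ± 0.12 (SE), and the ratio of pooled reads was 2.47 with a 95% interval of 2.09 to 2.94 that covers counting error only. By fitted log2 fold change it was number 4 of the 15979 genes tested in this tissue, the contrast from which it was chosen.

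*Casp12* was the most abundant of the 3 in the cerebellum by CPM. It stood at 5.75, 6.88 and 6.45 CPM in *Wiz* +/+ and at 9.25, 10.4 and 9.33 CPM in Het cerebella, on 176 to 203 and 262 to 307 reads. The groups did not overlap here either. The means were 6.36 ± 0.571 and 9.66 ± 0.644 CPM (SD, n = 3), the log2 fold change was 0.60 ± 0.09 (SE), and the pooled ratio was 1.52 (1.37 to 1.69, counting error only). *Casp12* was number 131 by fold change. Within the call rule of the study's methods (adjusted p at most 0.05 with a fold change under 0.7 or over 1.3), *Casp1* and *Casp12* were among 85 genes called higher in Het, 0.532% of those tested, and among 133 called in either direction, 0.832%. Their calls follow from how the locus was chosen and are not read further.

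*Casp4*, which sits between them, was barely detected in the cerebellum. It gave 0.131, 0.271 and 0.228 CPM in *Wiz* +/+ and 0.247, 0.102 and 0.228 CPM in Het cerebella, on 3 to 8 reads per library. The groups overlapped fully. Pooled reads were 19 against 17, a ratio of 0.917 with an interval of 0.448 to 1.86 from counting error, so a difference of the size seen at *Casp12* was not detectable at this depth, whereas the interval lies under the ratio measured for *Casp1*. *Casp4* did not pass the filter on low counts in this tissue and was not fitted. Of the 3 members, 2 had cerebellar groups that did not overlap, which 24.3% of tested genes also showed.

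**Figure D1:**
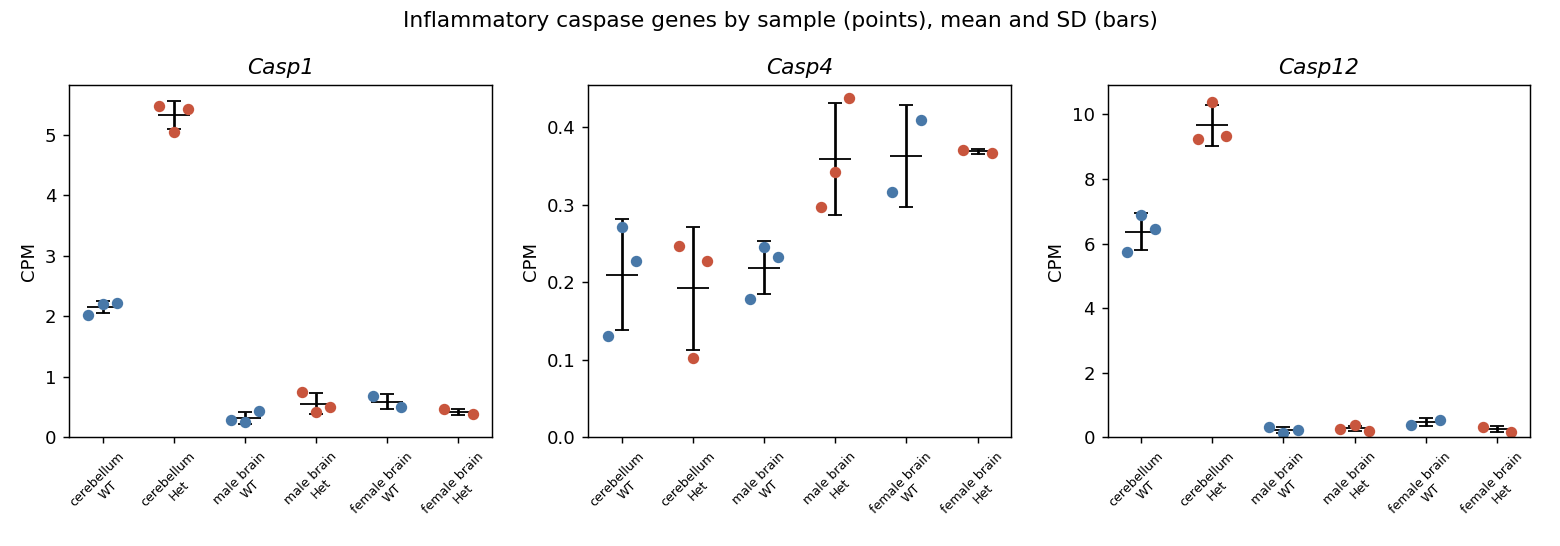
CPM of *Casp1*, *Casp4* and *Casp12* (vertical axes, each from 0 and on its own scale) in each sample (points, blue for *Wiz* +/+ and red for Het), with the group mean and SD as bars, for 6 groups on the horizontal axis. The cerebellar means of *Wiz* +/+ and Het lie at 2.15 and 5.32 CPM for *Casp1* and at 6.36 and 9.66 CPM for *Casp12*, while *Casp4* stays under 0.5 CPM throughout and both other genes stay under 1 CPM in every embryonic brain.

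The members were tested in the brains at embryonic day 13.5, and none was called there in either sex or in both together. The brains gave 2 to 32 reads per library, and intervals of pooled ratios cover counting error only, not the spread between brains. In male brain the *Casp1* ratio, 1.70 (1.10 to 2.67), could not be told from the cerebellar 2.47. The male *Casp12* interval (0.623 to 1.89) likewise holds the cerebellar 1.52. In female brain, with 2 per genotype, the intervals lay under those cerebellar ratios for *Casp1* (0.463 to 1.10) and *Casp12* (0.296 to 0.892). They also did so over both sexes (0.818 to 1.48 and 0.506 to 1.07). The cerebellar ratios come from the contrast by which the locus was chosen and carry error of their own. A difference between the tissues was therefore not tested. In male brain 2 members were tested and 0 called, against 0.184% of 16848 genes. In female brain 3 were tested and 0 called, against 0.111% of genes, and over both sexes 3 were tested and 0 called, against 0.346%. The unadjusted p was under 0.05 for *Casp1* and *Casp4* in male brain and for no member in female brain or over both sexes. Exact permutation tests of the mean log2(CPM + 0.1) were also run for the 3 members in the 3 comparisons.

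*Casp1* in male brain stood at 0.279, 0.245 and 0.436 CPM in *Wiz* +/+ and at 0.743, 0.416 and 0.496 CPM in Het. The groups overlapped, since the lowest Het brain lay under the highest *Wiz* +/+ brain. The log2 fold change was 0.75 ± 0.33 (SE), with adjusted p = 0.572 (edgeR). The exact permutation p was 0.2, where 0.1 is the smallest that 3 against 3 samples allow (two-sided). In female brain the order was turned round, with 0.674 and 0.501 CPM in *Wiz* +/+ and 0.459 and 0.388 CPM in Het, both Het brains lying lower. That log2 fold change was -0.48 ± 0.31 (edgeR, adjusted p = 0.85), and 0.333 is the smallest exact permutation p that 2 against 2 can give. Over both sexes the log2 fold change was 0.16 ± 0.28 (adjusted p = 0.867). The term for the genotype difference in males minus that in females was 1.23 ± 0.47 (edgeR, adjusted p = 0.985), so it failed the correction over all genes.

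*Casp4* in male brain was the one case in that sex of groups that did not overlap, with 0.179, 0.245 and 0.233 CPM in *Wiz* +/+ and 0.297, 0.342 and 0.438 CPM in Het. All 3 Het brains were higher, as 12.3% of genes tested in male brain had groups apart in 1 direction or the other. The log2 fold change was 0.76 ± 0.34 (edgeR, adjusted p = 0.583) on 4 to 15 reads per library, and the exact permutation p was 0.1, the smallest possible. In female brain it stood at 0.316 and 0.410 against 0.371 and 0.367 CPM, with a log2 fold change of 0.03 ± 0.34 (adjusted p = 0.992). Over both sexes the log2 fold change was 0.38 ± 0.23 (adjusted p = 0.572), and the exact permutation within sex gave p = 0.05, where 0.0167 is the smallest it allows.

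*Casp12* had too few reads in male brain to be fitted. It stood at 0.319, 0.122 and 0.233 CPM in *Wiz* +/+ and at 0.248, 0.367 and 0.204 CPM in Het male brains. These overlapped, and the pooled ratio was 1.08 (0.623 to 1.89, counting error only). In female brain it stood at 0.379 and 0.546 CPM in *Wiz* +/+ and 0.306 and 0.173 CPM in Het, both Het brains lower. The log2 fold change was -0.94 ± 0.42 (edgeR, adjusted p = 0.782), and over both sexes it was -0.40 ± 0.31 (adjusted p = 0.645). In female brain 2 of the 3 members thus had genotypes that did not overlap, in a comparison of 2 against 2 in which 36.2% of genes did. Several marker lists also had sums that did not overlap between the female genotypes. In Het female brains the microglial sum was lower, at 102 to 104 against 111 to 113 CPM, and so was the erythroid sum, at 312 to 355 against 379 to 447 CPM. The sums of blood leukocytes and border macrophages (35.6 to 36.1 against 36.5 to 40.2 CPM), endothelium (302 to 327 against 328 to 338 CPM), astrocytes (192 to 199 against 213 to 234 CPM) and granule cells (108 to 111 against 114 to 120 CPM) were lower as well. The sum of neural progenitor markers was higher, at 1190 to 1200 against 891 to 1080 CPM. Their part in the caspase values was not tested.

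*Casp12* and *Casp1* differed more between the tissues than between the genotypes, while the tissue difference of *Casp4* was small. Each tissue was scaled on its own, so the levels are set side by side with no test. In *Wiz* +/+ samples *Casp12* averaged 6.36 CPM in cerebellum and 0.320 ± 0.159 CPM (SD, n = 5) over the embryonic brains, a ratio of 19.9. *Casp1* averaged 2.15 against 0.427 ± 0.175 CPM, a ratio of 5.03. *Casp4* averaged 0.210 against 0.276 ± 0.0891 CPM, a ratio of 0.759. The cerebellar and brain samples did not overlap for *Casp12* and *Casp1*, and they did for *Casp4*. The order of *Casp1* means ran from Het cerebellum through *Wiz* +/+ cerebellum to female *Wiz* +/+, male Het, female Het and male *Wiz* +/+ brain, and no 2 neighbours among those 4 brain groups were apart beyond their ranges. For *Casp12* the same 2 cerebellar groups led, female *Wiz* +/+ brain (0.463 ± 0.118 CPM) came next without overlapping male Het brain (0.273 ± 0.0841 CPM), and the last 3 groups overlapped. For *Casp4* the female brains and the male Het brains came first, at 0.359 to 0.369 CPM on average, and the male *Wiz* +/+ brains and both cerebellar groups came last, at 0.192 to 0.219 CPM.

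Levels of different genes can be compared only per length, here as CPM per kilobase of annotated exon, with the exons of all transcripts merged. That length was 1497 bases for *Casp1* (1 transcript), 3710 for *Casp4* (7) and 3840 for *Casp12* (5). The longest coding sequences were closer in length, at 1206, 1119 and 1257 bases. The order of the members and their shares therefore depend on the length used, and no other length was tried. By CPM alone *Casp12* was above *Casp1* in both cerebellar genotypes. In *Wiz* +/+ cerebellum *Casp12* (1.66 ± 0.149, SD, n = 3) and *Casp1* (1.43 ± 0.0712) were close but did not overlap, and *Casp4* (0.0566 ± 0.0194) lay far below both. In Het cerebellum the order of the first pair was the other way, with *Casp1* at 3.55 ± 0.155 and *Casp12* at 2.52 ± 0.168 CPM per kilobase. The ratio of *Casp1* to *Casp12* per length ran from 0.821 to 0.904 in *Wiz* +/+ and from 1.24 to 1.52 in Het cerebella. In the embryonic brain *Casp1* led the locus at 0.310 ± 0.103 CPM per kilobase over all 10 brains, and *Casp4* (0.0862 ± 0.0222) and *Casp12* (0.0754 ± 0.0319) were alike within their spread. *Casp1* took 63.6% to 67.7% of the summed per-length level of the 3 genes on average in the 4 brain groups. *Casp4* took 16.1% to 22.6% there, but only 1.77% ± 0.513 in *Wiz* +/+ and 0.833% ± 0.379 in Het cerebellum.

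**Figure D2:**
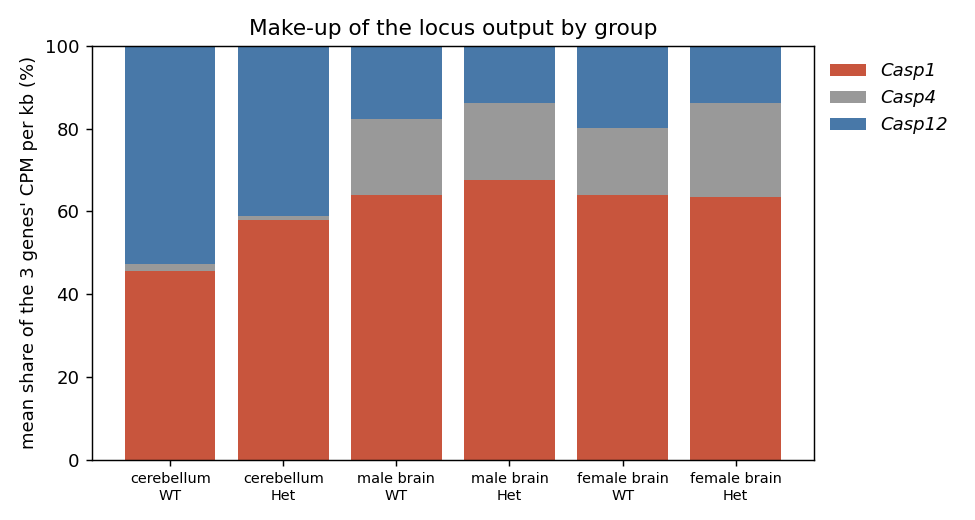
Mean share (%) of the summed CPM per kilobase of exon that *Casp1*, *Casp4* and *Casp12* each contributed in the 6 groups (stacked bars, from 0 to 100%). *Casp12* makes up 52.6% in *Wiz* +/+ and 41.1% in Het cerebellum, and *Casp1* 45.6% and 58.0%. In the 4 brain groups *Casp1* makes up more than both neighbours together. The shares depend on the exon length taken for each gene.

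The nearest expressed genes on either side were compared to see how far along the chromosome the cerebellar difference was measured. The locus stands alone, with *Gria4*, a glutamate receptor subunit, ending 502.3 kb before *Casp1* and *Pdgfd*, a platelet-derived growth factor, starting 795.6 kb after *Casp12*. The 6 other annotated features between those neighbours include 1 that was in the count data, and it had no read. *Gria4* was at 553 ± 16.5 CPM in *Wiz* +/+ and 581 ± 4.04 CPM in Het cerebellum (log2 fold change 0.07 ± 0.03, adjusted p = 0.159 in edgeR's test). *Pdgfd* stood at 15.7, 15.0 and 15.6 CPM in *Wiz* +/+ and at 16.4, 14.9 and 14.9 CPM in Het cerebella. Those groups overlapped, with a log2 fold change of -0.01 ± 0.06 (adjusted p = 0.976). Of the 5 nearest tested genes on each side, 1 of 10 was called in the cerebellum and 0 in male brain, in female brain or in both sexes together. Over all genes, 0.832% were called in cerebellum, 0.184% in male brain, 0.111% in female brain and 0.346% over both sexes.

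The gene called was *Gucy1a2*, a subunit of soluble guanylate cyclase, 1403.8 kb before *Casp1*. It stood at 4.47, 5.12 and 3.78 CPM in *Wiz* +/+ and 6.35, 6.71 and 5.43 CPM in Het cerebella, with all Het samples higher. The log2 fold change was 0.47 ± 0.12 (edgeR, adjusted p = 0.0314), and the call was lost when *Wiz* +/+ replicate 1 or 3 or Het replicate 1 or 2 was left out (adjusted p = 0.0808, 0.171, 0.12 and 0.0955). *Mmp20*, a matrix protease gene 2255.2 kb after *Casp12*, had a log2 fold change of 0.94 ± 0.32 on 6 to 18 reads and was not called (adjusted p = 0.0969). *Dync2h1*, a ciliary motor subunit, passed the adjusted p but not the fold limit (0.17 ± 0.05, adjusted p = 0.0461). The other 6, *Msantd4*, *Kbtbd3*, *Aasdhppt*, *Dcun1d5*, *Mmp12* and *Gria4*, had log2 fold changes of 0.01 to 0.47, none of them called. The median over the 10 was 0.06, against -0.0031 over all genes tested. Widening to 5 Mb on either side gave 23 tested genes, and *Gucy1a2* was still the only one called.

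In male brain *Pdgfd* was higher in every Het sample, at 1.76, 1.96 and 2.01 CPM against 1.15, 1.10 and 1.51 CPM, but it was not called (log2 fold change 0.59 ± 0.17, adjusted p = 0.306). Over both sexes its log2 fold change was 0.40 ± 0.12 (edgeR, adjusted p = 0.215).

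**Figure D3:**
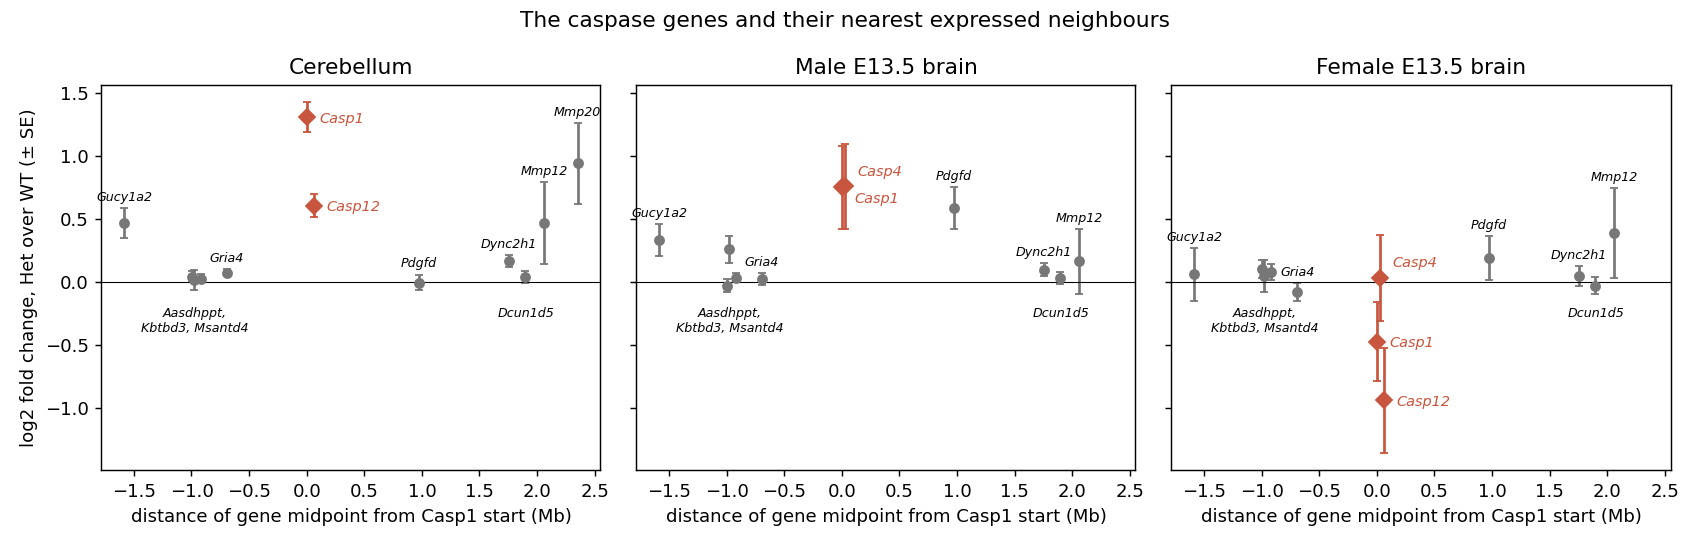
Fitted log2 fold change (Het over *Wiz* +/+, ± SE, vertical axis) of the members (red diamonds) and of the nearest tested genes on either side (grey circles), by distance of the gene's midpoint from the start of *Casp1* in Mb (horizontal axis), for cerebellum, male brain and female brain. In the cerebellum *Casp1* (1.31) and *Casp12* (0.60) stand above *Gria4* (0.07) and *Pdgfd* (-0.01), the nearest gene on each side. Members below the filter on low counts are not drawn.

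The genes that act with the inflammatory caspases were taken from 8 lists. Of 86 listed genes 84 were in the count data, 69 were tested in the cerebellum, 2 were called higher in Het and 0 were called lower, with a median log2 fold change of 0.0013. Over all genes tested in the cerebellum, 0.532% were called higher and 0.832% in either direction. In the embryonic brain 70 were tested in each sex and 73 over both sexes, and 0 were called, against 0.184%, 0.111% and 0.346% of all genes in male, female and both. The genes called in the cerebellum were *Il18* and *Txnip*. Some list sums, which abundant genes dominate, were higher in every Het cerebellum. They were sensors (3.35 to 3.69 against 2.96 to 3.13 CPM), adaptors (113 to 116 against 106 to 111) and substrates (61.1 to 62.8 against 57.7 to 59.5). IL-1 receptors (44.6 to 45.5 against 42.9 to 43.4) and interferon genes (341 to 354 against 331 to 336) were too. Among single genes tested in the cerebellum, 24.3% had genotypes that did not overlap, in either direction. In the adaptor sum the largest change was that of *Txnip* (means 12.2 and 18.9 CPM), while the most abundant genes, *Brcc3* and *Nek7*, were slightly lower. In the substrate sum it was that of *Il18* (9.71 and 12.7 CPM), while the most abundant gene, *Gsdme*, was at 21.9 and 22.1 CPM. The guanylate binding and other caspase sums overlapped, and ER stress sums were not higher.

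*Il18*, whose product is a cytokine that *Casp1* matures, stood at 9.83, 9.42 and 9.90 CPM in *Wiz* +/+ and at 13.1, 12.2 and 12.7 CPM in Het cerebella. All Het samples were higher and the groups lay well apart. The log2 fold change was 0.38 ± 0.07 (edgeR, adjusted p = 0.00518), a 1.303-fold difference that only just passed the fold limit, and it fell under that limit without *Wiz* +/+ replicate 2 (1.285-fold) or without Het replicate 1 (1.287-fold), with adjusted p = 0.0143 and 0.0304. In male brain the log2 fold change of *Il18* was -0.06 (adjusted p = 0.922) and in female brain 0.17 (adjusted p = 0.9). The other substrates and cytokines were not called. *Gsdmd*, which encodes gasdermin D, was at 1.62 ± 0.201 and 1.47 ± 0.0131 CPM, and *Gsdme*, a related pore-forming protein, was at 21.9 ± 0.231 and 22.1 ± 1.14 CPM. *Il33*, a cytokine of the interleukin family of *Il18*, was at 13.8 ± 0.385 and 14.6 ± 0.127 CPM. *Il1b*, the best known target of *Casp1*, averaged 0.0334 and 0.0909 CPM in the cerebella and was too low to test.

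*Txnip*, which encodes a thioredoxin-binding protein reported to engage NLRP3, stood at 13.9, 10.2 and 12.5 CPM in *Wiz* +/+ and at 21.2, 14.1 and 21.2 CPM in Het cerebella. All Het samples were higher, but Het replicate 2 lay close to the highest *Wiz* +/+ sample. The log2 fold change was 0.62 ± 0.13 (edgeR, adjusted p = 0.00892), and the call was lost without *Wiz* +/+ replicate 3 (adjusted p = 0.0513), without Het replicate 1 (0.0659) and in DESeq2's Wald test (0.0905). Among the other adaptors and co-factors *Pycard* was at 0.696 ± 0.189 and 0.808 ± 0.278 CPM and was not called. The kinase gene *Nek7*, needed for NLRP3 activation, was at 38.7 ± 1.05 and 38.0 ± 0.94 CPM, and the deubiquitinase gene *Brcc3* was at 41.9 ± 1.31 and 41.4 ± 2.78 CPM.

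Of 11 inflammasome sensors 6 were tested in the cerebellum and none was called, although all 6 log2 fold changes were above 0 with a median of 0.30, against -0.0031 over all genes. They were low, at 0.957 ± 0.254 and 0.978 ± 0.213 CPM for *Aim2*, a sensor of cytosolic DNA, and 0.441 ± 0.0602 and 0.579 ± 0.125 CPM for *Nlrp3*. In the receptor list 4 of 9 genes were tested and none called, and the signalling receptor *Il1r1* was at 5.17 ± 0.417 and 6.44 ± 0.718 CPM (log2 fold change 0.32 ± 0.11, edgeR, adjusted p = 0.0924). None of the 6 other caspases tested was called, with log2 fold changes from -0.06 to 0.08. *Casp9*, the initiator of the mitochondrial death pathway, was at 37.8 ± 0.446 and 39.3 ± 0.152 CPM.

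Genes of the interferon response were not called either, with 7 of 18 above 0 and a median log2 fold change of -0.03 in the cerebellum. *Stat2*, which carries the interferon signal to the nucleus, was at 96.9 ± 3.77 and 106 ± 5.51 CPM (0.13 ± 0.04, edgeR, adjusted p = 0.0639). Of the guanylate binding and IRG proteins, interferon-induced GTPases that act upstream of *Casp4*, 8 of the 10 in the data were tested and 3 were above 0 (median -0.07). In male brain, where *Casp4* was higher in every Het sample, 8 of 9 tested members of that GTPase list were above 0. Their median was 0.19, against 0.0001 over all genes. In female brain it was 3 of 10 with a median of -0.11, and over both sexes 6 of 10 with a median of 0.03. None was called in any of these, and whether they go with *Casp4* was not tested. The ER stress genes, with which *Casp12* has been linked, had 4 of 15 above 0 and a median of -0.09 in the cerebellum. None met the call rule, but 4 passed the adjusted p alone, all lower in Het. Over all 15979 genes tested in the cerebellum, 839 passed it in either direction. The chaperone genes *Calr* and *Hsp90b1* had log2 fold changes of -0.20 ± 0.05 and -0.16 ± 0.04, the transcription factor gene *Xbp1* -0.29 ± 0.07, and the stress kinase gene *Eif2ak3* -0.14 ± 0.04 (edgeR, adjusted p = 0.0239, 0.0327, 0.0268 and 0.0374). *Hspa5*, the main ER chaperone, was at 439 ± 22 and 382 ± 44.7 CPM (adjusted p = 0.0524).

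**Figure D4:**
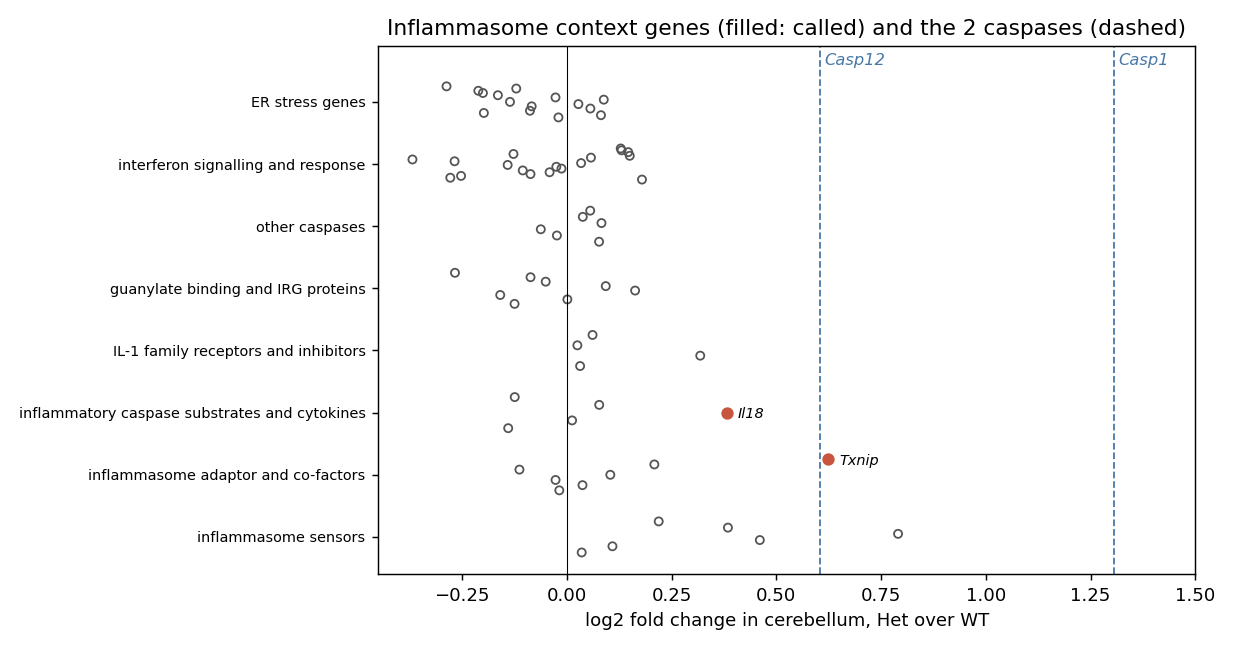
Fitted log2 fold change in the cerebellum (Het over *Wiz* +/+, horizontal axis) of each tested gene of the 8 lists (rows), open circles for genes not called and filled circles for called ones. *Il18* (0.38) and *Txnip* (0.62) are the called genes, and the dashed lines mark *Casp12* (0.60) and *Casp1* (1.31), the latter above every listed gene.

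Marker genes of several cell types were compared in the same libraries, which do not show which cells express the caspases. The 14 microglial markers summed to 117 to 125 CPM in *Wiz* +/+ and 119 to 124 CPM in Het cerebella, with 0 of 14 called and a median log2 fold change of -0.0025. The markers of blood leukocytes and border macrophages summed to 12.6, 12.1 and 12.9 CPM in *Wiz* +/+ and 15.8, 16.3 and 12.4 CPM in Het cerebella, with 5 of 6 tested genes above 0, a median log2 fold change of 0.28 and none called. Their part in the caspase values was not tested. Endothelial markers summed to 200 to 206 and 199 to 214 CPM. Some markers passed the adjusted p alone, as 839 of the 15979 genes tested did. They were *Nes*, *Sox2*, *Gfap*, *Mbp*, *Cnp*, *Col1a1* and *Cldn5*, lower in Het, and *Gdf10* and *Cbln3*, higher. The neural progenitor sums did not overlap, at 167 to 179 CPM in *Wiz* +/+ and 162 CPM in Het cerebella. Whether these go with the caspase values was not tested.

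The erythroid list was the only marker list with called genes in the cerebellum. The 6 genes of that list summed to 145, 206 and 227 CPM in *Wiz* +/+ and to 266, 481 and 281 CPM in Het cerebella. Of the 5 tested, 4 were called higher, against 0.532% of all genes tested. *Alas2*, the first enzyme of erythroid haem synthesis, had a log2 fold change of 1.08, and the globin genes *Hba-a1*, *Hba-a2* and *Hbb-bs* had 0.78, 0.87 and 0.86 (edgeR, adjusted p = 0.00325, 0.0129, 0.0374 and 0.00769). *Hba-a1* and *Hba-a2* are near-identical copies whose reads the counting could split. Of the Het cerebella, replicate 2 had the highest erythroid sum, the lowest *Casp1* (5.05 CPM) and the highest *Casp12* (10.4 CPM), and without it the log2 fold changes of *Casp1* and *Casp12* were 1.34 and 0.55. What part of the caspase values goes with blood in the tissue was not tested.

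**Figure D5:**
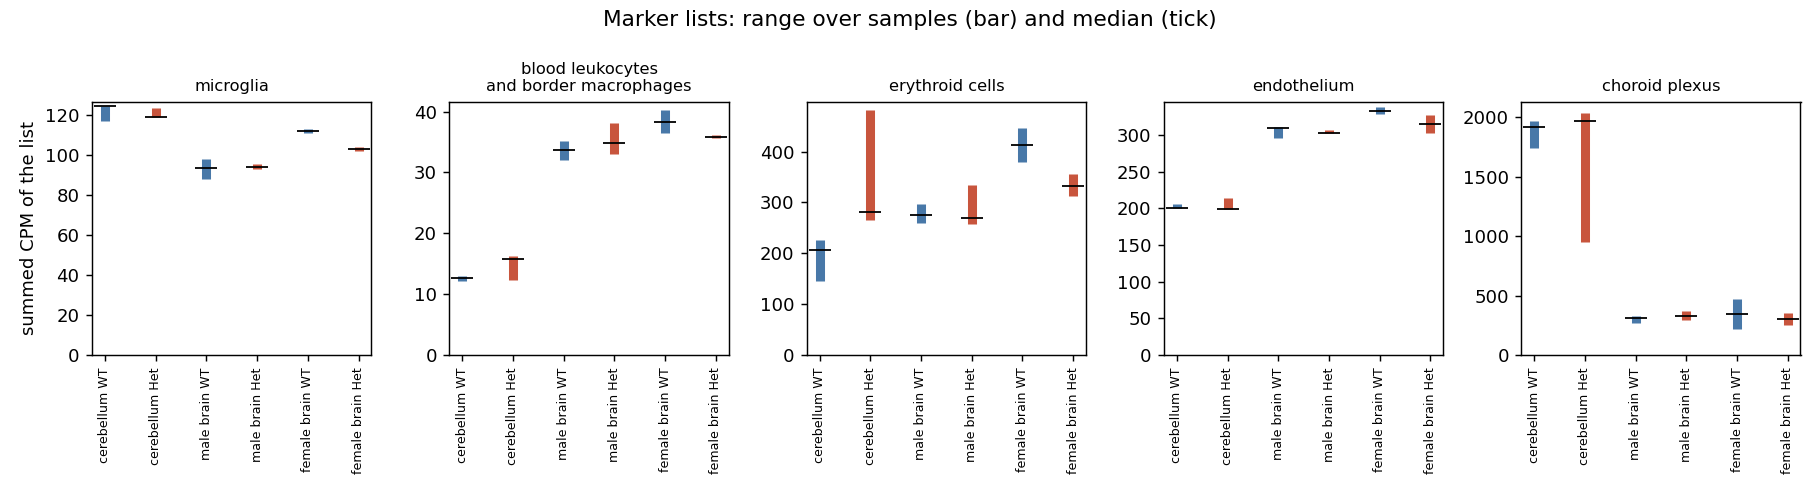
Summed CPM of 5 marker lists (vertical axes, from 0) by group, with bars from the lowest to the highest sample and a tick at the median, blue for *Wiz* +/+ and red for Het. Microglial and endothelial sums overlap between cerebellar genotypes, the erythroid sums run from 145 to 227 CPM in *Wiz* +/+ and from 266 to 481 CPM in Het cerebella, and 1 Het cerebellum has a choroid plexus sum of 949 CPM.

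The genes whose levels followed each member most closely were ranked by Pearson's r of log2 CPM over the 16 samples among 17956 genes. These samples share 2 tissues and 2 genotypes, so r describes mainly the tissue difference and is given with no test. *Casp1* was most like *Bmp5*, a bone morphogenetic protein gene (r = 0.978), *Gm43302* (0.976), *Gm28068* (0.974), *Ift57* and *Cp* (both 0.973). Among these *Bmp5* averaged 8.21 CPM in *Wiz* +/+ and 12.3 CPM in Het cerebellum, *Gm43302* 3.62 and 5.36 CPM, and *Gm28068* 0.265 and 0.634 CPM. The cerebellar means of *Ift57* (27.5 and 29.7 CPM) and *Cp* (22.4 and 24.8 CPM) were closer. *Casp12* was most like *Selenop*, a selenium transport protein gene (0.995), *Il6st*, the shared receptor subunit of the interleukin 6 family (0.994), *Deptor* (0.994), *mt-Rnr1* and *Afap1l2* (both 0.993). In *Wiz* +/+ and Het cerebellum *Selenop* averaged 245 and 257 CPM, *Il6st* 138 and 144, *Deptor* 16.4 and 17.2, *mt-Rnr1* 817 and 871, and *Afap1l2* 99.9 and 114. *Casp4* had weaker matches, among them *D730045B01Rik* (0.78), *1700055D18Rik* (0.772), *Sult6b2* (0.764) and *Acss3* (0.762). Between members r was 0.962 for *Casp1* and *Casp12*, -0.399 for *Casp1* and *Casp4*, and -0.456 for *Casp4* and *Casp12*.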

How the data were processed

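The authors prepared TruSeq polyA libraries, sequenced 100 base single-end reads, aligned them to mm10 with TopHat2 2.0.11 and deposited raw counts per Ensembl gene from HTSeq 0.6.1. The counting mode, strand setting and annotation release are not given in the sources used here. Of 41388 gene identifiers, 40254 matched GENCODE M21, and the unmatched took at most 0.171% of counts. Members and gene lists were chosen with earlier results of these data known. Named genes were the members, *Wiz*, the 5 nearest tested protein-coding genes on either side, called listed genes, up to 3 abundant genes per list, and the 5 most similar genes per member. Others that the text singles out (*Il1b*, *Il33*, *Pycard*, *Nlrp3*, *Gsdmd*, *Xbp1*, *Eif2ak3*) were picked after their values were seen. Genes passing filterByExpr (minimum count 10) were tested per tissue and sex with edgeR 4.0.16 (R 4.3.3), TMM scaling and Benjamini-Hochberg adjustment. The fit over both sexes carried a sex term. The code was tested on simulated counts. CPM uses TMM factors (0.996 to 1.004) within a tissue and sex. Depths bound precision, and intervals at 95% cover counting error only. DESeq2 1.42.0, other scaling, no filter, a replicate block and leaving out each replicate were tried. Samples with the same replicate number did not deviate together. Wiz ChIP-seq was not analysed here, and some genes that the naming rule covers are not reported here.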

Additional observations from a re-analysis of the deposited data

Results flagged for a closer look

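The genotype difference of *Casp1* and *Casp12* ran in opposite directions in adult cerebellum and in female embryonic brain. Every Het cerebellum was higher than every *Wiz* +/+ cerebellum and both Het female brains were lower than both *Wiz* +/+ female brains. The log2 ratio of means was 1.308 in cerebellum and -0.473 in female brain for *Casp1*, a difference of 1.781, and 0.604 and -0.953 for *Casp12*, a difference of 1.557. The difference between the tissues was not tested, the members were chosen for the cerebellar direction, and the brain values rest on 8 to 32 reads per library. Erythroid genes showed the same opposite pattern, with differences of 1.374 for *Alas2*, 1.014 for *Hba-a1*, 1.135 for *Hba-a2* and 1.35 for *Hbb-bs*, also not tested. Groups of 4 to 10 samples were not present, so no group was searched for single outlying samples.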

How the results depend on the processing

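With DESeq2 size factors, and with no filter, the members fitted in a brain comparison kept their direction and stayed uncalled. In the DESeq2 Wald test they kept their direction too. That test gave an adjusted p only for *Casp1* in female brain and over both sexes, neither called, so the other brain fits of members could not be called. In cerebellum, where no test was made, *Casp1* and *Casp12* kept their direction in all of these settings. Scaling by total counts alone was run on mean CPM only and moved no member's mean by more than its SD. The number of genes called moved more. In cerebellum it was 133, against 75 with the DESeq2 Wald test, 211 with no filter, 839 on the adjusted p alone and 70 to 153 leaving out each replicate. In male brain it was 31, against 175 with no filter and 20 to 117. In female brain it was 19, against 32 with the Wald test and 0 to 261, where leaving out a brain leaves 1 in its group, assumed to vary like the others. Over both sexes it was 61, against 101 with no filter. The number of flanking genes called in cerebellum was 1, and 0 to 1 leaving out each replicate. Leaving out replicates turned the sign of *Casp1* over both sexes (log2 fold change -0.0508 to 0.3944, below 0 without male *Wiz* +/+ or male Het replicate 1) and of *Casp4* in female brain (-0.1505 to 0.2203), both not called. The sign of the log2 ratio of mean CPM also turned for the unfitted *Casp4* in cerebellum (-0.3769 to 0.1777) and *Casp12* in male brain (-0.014 to 0.6213). The cause was not tested. With no filter, 1 listed gene was called in male brain, against 0. Residuals of samples with the same replicate number correlated at -0.16 to -0.022, so the numbers were not taken as pairs, and with a replicate block the calls were 144, 23, 3 and 46 in cerebellum, male brain, female brain and both sexes. With the block no member fitted in a brain comparison was called. *Casp4* in cerebellum and *Casp12* in male brain rest on 2 to 16 reads per library, which limits what could be detected.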
